A study of Mus musculus with 6 samples.

Results

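The 40 interferon-stimulated genes described here are antiviral effectors, sensors and regulators whose transcription rises when a cell receives an interferon signal. They were chosen by symbol, and each was read from the brightest probe whose RefSeq accession maps to that symbol. A probe was matched for 38 of the 40, out of 20284 genes named on the arrays. No probe was matched here for Mx1 and Mx2, a pair of antiviral GTPases.

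Type I interferons bind the Ifnar1 and Ifnar2 receptor chains, whose kinases Jak1 and Tyk2 phosphorylate Stat2. Together with Irf9 it is part of a complex that binds the interferon-stimulated response element (ISRE) in target promoters, while interferon gamma acts at gamma-activated sites (GAS). Haematopoietic stem cells are known to respond to interferons, and to express some of these genes without infection. Trim28, named Tif1b in the labels, is a corepressor that silences transposable elements, and loss of such silencing has been linked in other cells to interferon responses.

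The arrays measured RNA of KSL cells, the c-Kit+ Sca1+ Lineage- fraction that contains haematopoietic stem cells, all labelled with the C57BL6 background. Bone marrow (BM) KO cells carried CreERT and Tif1bf/f, and BM WT cells CreERT and Tif1bw/w. Fetal liver (FL) KO cells carried Tie2-Cre and Tif1bf/f, and FL WT cells Tie2-Cre and Tif1bw/w. CreERT is a drug-inducible recombinase, and Tie2-Cre acts in endothelial and blood cells from embryonic life on. The second BM pair is labelled Tif2b in place of Tif1b, and description fields of the first BM pair name other knockdowns in c-Kit+ Lineage- cells. BM KO and BM WT have 2 arrays each, FL KO and FL WT 1 each, and no label says that the 2 arrays of a group came from separate animals. P-values therefore measure only the spread between these samples. The labels used here give no ages, no number of pooled animals and no inducing treatment. The FL pair, BM pair 1 and BM pair 2 each share a slide, so tissue, Cre driver and slide cannot be told apart.

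All values below are levels or differences of levels on the log2 scale, where 0 is the array's 75th percentile of signal. That percentile was 325 and 743 units of scanner signal in BM KO and 281 and 737 in BM WT, against 211 in FL KO and 219 in FL WT. A probe is called above background where the scanner software flagged it so. The deposited value table equals the scanner signal over a constant on 5 of the 6 arrays, for 100% of probes within 1%, but for 1.40% of probes on BM WT replicate 1. That array is given from both sources. In its scanner file the Kit level was 1.30, against 4.16 to 4.50 on the other arrays and in the table, and markers of B, T, NK, plasmacytoid dendritic and myeloid cells were high. Values of BM WT replicate 1 are from the value table unless the scanner file is named.

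The targeted gene and the sorted antigens were read first. Trim28 stood at 1.28 and 0.75 in BM KO, against 5.18, or 2.45 in the scanner file, and 5.54 in BM WT, and at 1.67 in FL KO, against 5.97 in FL WT. It was lower in every KO array, by 4.34 ± 0.31 (SE, n = 2 each) between the BM groups (limma adjusted p = 0.0149). Ly6a, which encodes the Sca1 antigen of the sort and is itself an interferon-induced gene, stood at 3.60 and 6.04 in BM KO, against 0.77 in FL KO, and at 3.36 and 4.75 in BM WT, against 0.31 in FL WT. The difference of 4.05 ± 1.09 in KO cells did not pass the test (adjusted p = 0.0797).

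Promoter windows in RefSeq's table (GRCm38.p6, from 250 bases before to 50 after the annotated start) were matched for 30 members. The ISRE core, GAAA followed by any 2 bases and a further GAAA, was searched on both strands (TTTC, any 2 bases and TTTC on the other) and lay in 19 of these 30 windows (63.3%), against 3.99% of all 27025 genes with a window. The GAS letters TTCNNNGAA, which read the same on both strands, lay in 9 of 30 (30.0%), against 9.55% of all genes. None of the 9 windows of the interferon receptor and JAK-STAT list held the ISRE core. Both motifs lay in the windows of 6 members, and 8 had neither: Irf7, Irf9, Oasl1, Oasl2, Phf11d, Xaf1, Ifi44 and Ifi44l.

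**Figure D1:**
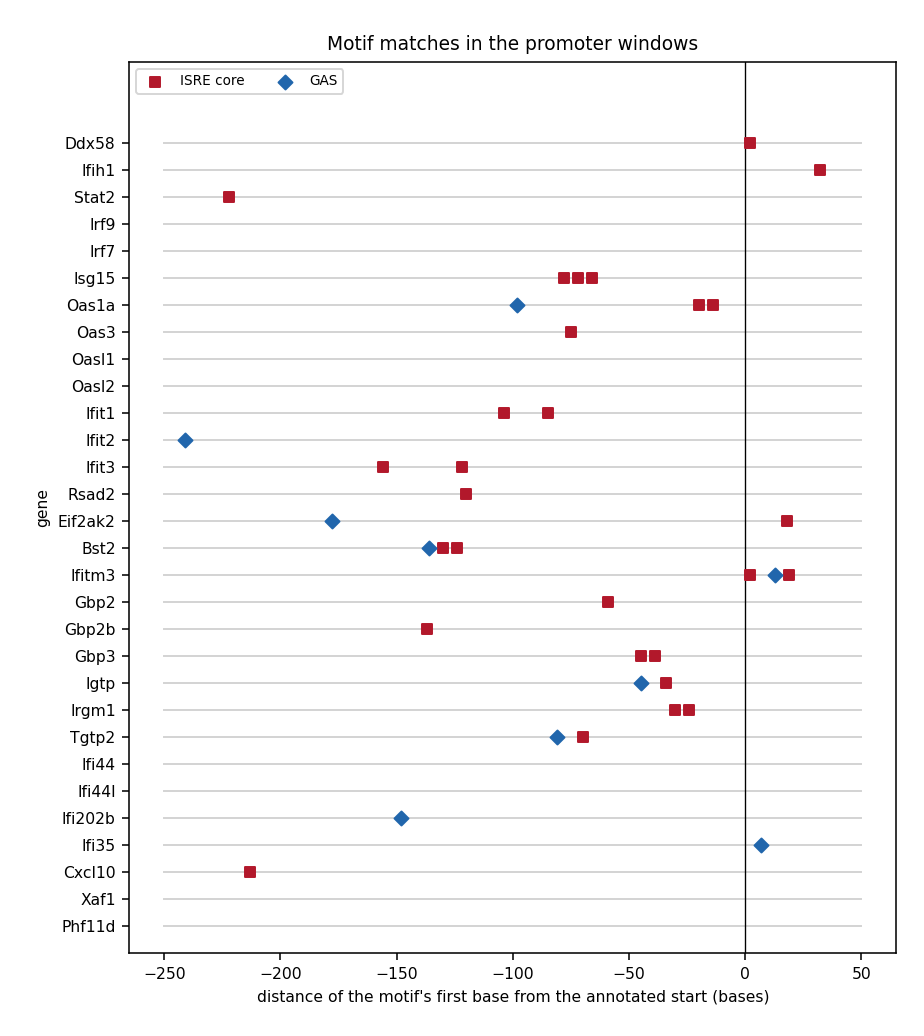
Distance in bases of each motif match from the annotated start site (0) for the 30 members with a promoter window, with red squares for the ISRE core and blue diamonds for GAS. Each grey line is 1 gene's window; 19 genes carry a red square.

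The 250 bases before the start are printed for 8 members on which the results turn, with ISRE core matches in capitals and the gene's strand written 5′ to 3′. Isg15 and Ifit1 are textbook interferon targets with 3 overlapping and 2 separate matches. The Gbp3, Gbp2b and Gbp2 genes lie next to each other on chromosome 3, as do Ifi44 and Ifi44l. In each of these clusters 1 member differed between BM KO and BM WT with the value table, while its neighbours did not pass the test. With the slide as a block, Ifi44 and Gbp3 passed too (limma adjusted p = 0.0193 and 0.0213). With the scanner file of BM WT replicate 1 none of these genes passed. Ifi202b differed with genotype in opposite directions in the 2 tissues with the value table.
Isg15 (chr4:156200819-156201068, - strand): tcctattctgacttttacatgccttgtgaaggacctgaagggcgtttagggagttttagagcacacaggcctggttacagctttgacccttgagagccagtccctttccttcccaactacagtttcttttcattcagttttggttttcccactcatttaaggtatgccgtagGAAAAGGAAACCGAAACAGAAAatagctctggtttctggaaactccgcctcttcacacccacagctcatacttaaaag
Ifit1 (chr19:34640639-34640888, + strand): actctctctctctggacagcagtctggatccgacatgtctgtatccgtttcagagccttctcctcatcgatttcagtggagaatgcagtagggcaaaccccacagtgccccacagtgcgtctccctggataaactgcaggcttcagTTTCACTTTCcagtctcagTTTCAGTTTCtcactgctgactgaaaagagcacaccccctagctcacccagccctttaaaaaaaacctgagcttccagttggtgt
Gbp3 (chr3:142559794-142560043, + strand): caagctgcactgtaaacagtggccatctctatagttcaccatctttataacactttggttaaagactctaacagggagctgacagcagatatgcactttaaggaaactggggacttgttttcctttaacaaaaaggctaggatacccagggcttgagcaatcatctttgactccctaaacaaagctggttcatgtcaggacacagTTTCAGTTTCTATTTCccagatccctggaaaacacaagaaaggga
Gbp2b (chr3:142594597-142594846, + strand): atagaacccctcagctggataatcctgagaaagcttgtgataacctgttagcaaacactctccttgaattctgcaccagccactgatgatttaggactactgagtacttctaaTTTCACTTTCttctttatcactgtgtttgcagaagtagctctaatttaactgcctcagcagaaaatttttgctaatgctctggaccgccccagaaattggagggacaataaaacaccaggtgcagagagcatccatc
Gbp2 (chr3:142620413-142620662, + strand): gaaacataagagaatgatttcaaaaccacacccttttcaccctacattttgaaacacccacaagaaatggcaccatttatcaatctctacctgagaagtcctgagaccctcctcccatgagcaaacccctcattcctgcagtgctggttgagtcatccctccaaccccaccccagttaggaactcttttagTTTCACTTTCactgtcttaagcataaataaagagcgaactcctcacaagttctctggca
Ifi44 (chr3:151749911-151750160, - strand): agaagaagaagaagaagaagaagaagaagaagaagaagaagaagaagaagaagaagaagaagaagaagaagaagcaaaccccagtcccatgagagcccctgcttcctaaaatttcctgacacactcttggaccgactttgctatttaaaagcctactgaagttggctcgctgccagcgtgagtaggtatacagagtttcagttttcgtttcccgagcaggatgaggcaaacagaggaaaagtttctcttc
Ifi44l (chr3:151762892-151763141, - strand): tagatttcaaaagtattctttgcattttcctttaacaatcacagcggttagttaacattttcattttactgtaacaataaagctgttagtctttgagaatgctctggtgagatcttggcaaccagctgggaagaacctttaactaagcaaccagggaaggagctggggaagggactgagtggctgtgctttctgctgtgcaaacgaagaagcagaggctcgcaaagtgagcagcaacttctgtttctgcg
Ifi202b (chr1:173982845-173983094, - strand): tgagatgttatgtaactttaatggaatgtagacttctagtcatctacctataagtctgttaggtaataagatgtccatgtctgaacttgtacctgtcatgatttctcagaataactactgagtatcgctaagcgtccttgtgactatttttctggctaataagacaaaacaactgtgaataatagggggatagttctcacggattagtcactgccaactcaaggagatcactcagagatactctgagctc
Gbp2b, Gbp2 and Ifit1 each carry the letters TTTCACTTTC. Ifi44 and Ifi44l showed no match of the core in the window, and Ifi202b showed no ISRE core but 1 GAS match.

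Nearly all members were higher in bone marrow than in fetal liver KSL cells, in KO and in WT alike. In KO cells 37 of 38 members were higher and 1, Stat2, was lower, and the median difference was 2.49, against -0.25 over all 13007 genes tested. In WT cells 34 of the 36 members tested were higher and 2 were lower, with a median of 2.25, against -0.26 over all genes. With the scanner file of BM WT replicate 1, 35 of 36 were higher and the median was 2.34. In bulk RNA, fewer cells that express a gene and less RNA per cell cannot be told apart.

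For KO cells, 19 members passed the test and all 19 were higher (background: 4.76% of genes called higher). Members not above background in FL KO entered this test only through the BM KO arrays. With only probes above background on all arrays compared, 13 of 31 members passed, all higher (background 5.92% of genes, either direction). All 37 higher members had both BM KO arrays above the FL KO array, as had 30.6% of all genes, and 31 were at least 2-fold higher (11.4% of all genes). For WT cells 16 members passed as higher (background 2.79%) and 1, Ifi202b, as lower (background 3.88%). In the higher direction 33 members did not overlap (background 29.5%). With the stricter filter 12 of 31 members passed in WT, all higher (background 2.74% of genes, either direction). These counts use the value table. With the scanner file of BM WT replicate 1 in the fit, no member passed in KO or WT cells by limma (background 0% called higher), although 1532 and 1377 genes had an unadjusted p under 0.05, and the differences in KO cells were the same. Without BM WT replicate 1, 37 of 38 members were higher in KO cells with a median of 2.49, and 34 of 36 in WT cells with a median of 2.57. The spread then rests on the 2 BM KO arrays alone, so calls of that fit are not counted. The lone FL arrays are assumed to vary like the BM arrays.

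**Figure D2:**
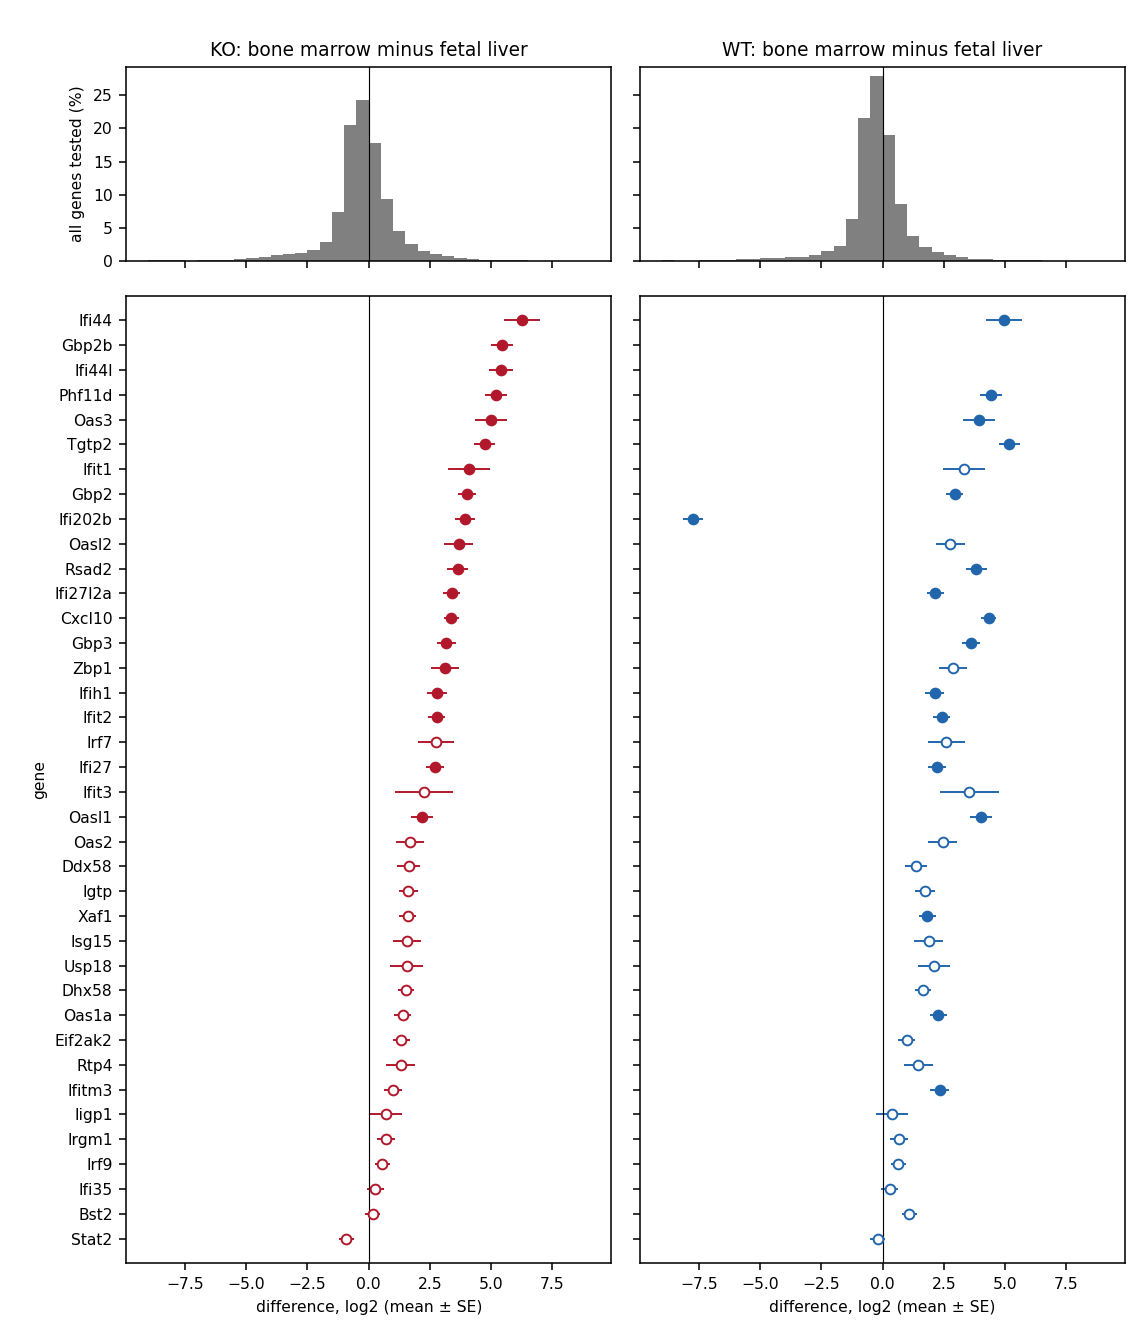
Difference in level, bone marrow minus fetal liver, in KO (left, red) and WT (right, blue) KSL cells from the value table, as mean ± SE for each member tested (filled: adjusted p under 0.05), below a histogram of the same difference over all genes tested. Members lie mostly right of 0, with medians of 2.49 in KO and 2.25 in WT, while the histograms centre at -0.25 and -0.26. Members not well above background in FL are drawn at their measured values, which have no order.

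The difference was there on each BM array taken alone. Each was set against the same lone FL array of its genotype, so the fetal side is not replicated. Against FL KO, 37 of 38 members were higher on BM KO replicate 1 and 37 of 38 on replicate 2, with medians of 2.16 and 2.65. Against FL WT, 33 of 36 were higher on BM WT replicate 1 and 34 of 36 on replicate 2, with medians of 1.84 and 2.57, while the scanner file of replicate 1 gave 36 of 38. The FL arrays were the dimmest, and 31 members were above background on every array. Among those 31, 30 were higher in BM KO than in FL KO with a median of 1.63, and 30 were higher in BM WT than in FL WT with a median of 2.15. Quantile normalization moved the median of all genes by 0.22 on the log2 scale, to -0.02 in KO and -0.03 in WT; members then stood 2.70 above it in KO and 2.57 in WT, against 2.74 and 2.51 before.

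Cell type markers moved with tissue as well. Over all genes tested, 38.5% were higher in BM in KO and 36.9% in WT, so most genes were lower. As background, 4.76% of genes passed as higher and 6.16% as lower in KO, and 2.79% and 3.88% in WT. Of 8 neutrophil markers, 8 were lower in BM KO than in FL KO and 6 passed, and their summed signal, in multiples of the 75th percentile, was 263 and 25.5 in BM KO, against 2990 in FL KO, and 1293 and 665 in BM WT, against 3112 in FL WT. Of 9 HSC and KSL markers, 7 were higher in BM KO than in FL KO and 5 passed; in WT 7 were higher and 2 passed. Of 5 hepatocyte markers tested in WT, 5 were lower in BM and 4 passed. Of 8 monocyte markers 7 were lower in KO and 5 passed, while in WT 3 were lower and 2 passed. Of 6 erythroid markers 5 were lower in KO and 6 in WT, with medians of -2.27 and -3.78, and none passed. B lymphoid markers were lower in WT in 7 of 7, and in KO in 1 of 4, and none passed. Plasmacytoid dendritic markers, of a cell type that makes much interferon, summed to 212 and 262 in BM KO, against 316 in FL KO, and to 264 and 227 in BM WT, against 301 in FL WT. These sums mostly reflect the brightest marker, at 7.55 and 7.53 in BM KO and 8.04 in FL KO. Single markers differed more. With the scanner files 1 of 5 tested was higher and 4 lower in KO (-4.18 to 7.42). In WT 2 were higher and 3 lower (-1.48 to 7.24). The WT counts include the scanner file of BM WT replicate 1, where these markers summed to 904. The part of these markers in the members' difference was not tested.

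The cytosolic sensors recognise foreign nucleic acid and start interferon production. Ddx58, which encodes the RNA sensor RIG-I, stood at 3.43 and 3.67 in BM KO, against 1.92 in FL KO, and at 2.18, or 2.42 in the scanner file, and 3.11 in BM WT, against 1.28 in FL WT. Ifih1, encoding the long double-stranded RNA sensor MDA5, stood at 2.16 and 2.41 in BM KO, against -0.51 in FL KO, and at 1.66, or 0.41 in the scanner file, and 2.32 in BM WT, against -0.13 in FL WT. Every BM value of both genes, the scanner file's included, was above both FL values. Ifih1 passed in KO (2.80 ± 0.40, adjusted p = 0.0152) and in WT (2.12 ± 0.40, adjusted p = 0.0434), and Ddx58 passed in neither (adjusted p = 0.0911 and 0.175).

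Dhx58, whose product LGP2 modulates the other RNA sensors, stood at 1.59 and 1.55 in BM KO, against 0.05 in FL KO, and at 1.18, or 1.65 in the scanner file, and 1.63 in BM WT, against -0.25 in FL WT. Zbp1, a sensor of Z-form nucleic acid, stood at 1.90 and 2.89 in BM KO, against -0.71 in FL KO, and at 1.11, or 2.21 in the scanner file, and 1.97 in BM WT, against -1.34 in FL WT. The BM arrays did not overlap with the FL arrays for either gene. Zbp1 passed in KO (3.11 ± 0.57, adjusted p = 0.0303) and not in WT (adjusted p = 0.051), and Dhx58 did not pass (adjusted p = 0.0507 and 0.0558).

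The transcription factors of the pathway differed less, apart from Irf7. Stat2 stood at 1.50 and 1.66 in BM KO, against 2.49 in FL KO, and at 1.45, or 3.38 in the scanner file, and 1.58 in BM WT, against 1.73 in FL WT. Irf9, its DNA-binding partner, stood at 3.72 and 3.47 in BM KO, against 3.03 in FL KO, and at 3.34, or 4.19 in the scanner file, and 3.40 in BM WT, against 2.73 in FL WT. Irf7, which amplifies type I interferon transcription, stood at 0.48 and 1.34 in BM KO, against -1.84 in FL KO, and at -0.48, or 1.72 in the scanner file, and 1.17 in BM WT, against -2.26 in FL WT. Stat2 was the only member lower in BM KO than in FL KO; Irf9 was slightly and Irf7 clearly above the FL arrays on all BM arrays. None of these 3 passed, with an Irf7 difference of 2.75 ± 0.75 in KO (adjusted p = 0.0836).

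The OAS family makes 2-5A, the activator of RNase L, an activity that Oasl2 keeps and Oasl1 lacks in mouse. Oas3 stood at 0.01 and 0.78 in BM KO and -0.97, or -0.50 in the scanner file, and 0.41 in BM WT, and was not well above background in FL KO or FL WT. It was at least 13.0-fold higher in BM KO than in FL KO (adjusted p = 0.013) and at least 7.95-fold higher in BM WT than in FL WT (adjusted p = 0.0319). Each bound sets the BM mean against the lowest signal called above background on the FL array. Here and below, the adjusted p beside a bound belongs to the fitted difference of measured levels, not to the bound. A gene with a bound entered its test only through the higher group. Oasl1 stood at 3.24 and 3.58 in BM KO, against 1.25 in FL KO, and at 3.11, or 3.67 in the scanner file, and 3.93 in BM WT, against -0.50 in FL WT. Oasl1 passed in both genotypes, with 2.16 ± 0.44 in KO and 4.01 ± 0.44 in WT (adjusted p = 0.0406 and 0.012), and no BM array overlapped with FL.

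Oasl2 stood at 2.90 and 3.20 in BM KO, against -0.62 in FL KO, and at 2.44, or 2.12 in the scanner file, and 3.78 in BM WT, against 0.34 in FL WT. Oas1a stood at 6.14 and 5.75 in BM KO, against 4.55 in FL KO, and at 5.59, or 5.33 in the scanner file, and 5.92 in BM WT, against 3.47 in FL WT. Oas2 stood at 2.86 and 2.75 in BM KO, against 1.11 in FL KO, and at 1.53, or 2.70 in the scanner file, and 2.85 in BM WT, against -0.26 in FL WT. All 3 were above FL of the same genotype on every BM array. Oasl2 passed in KO (3.68 ± 0.59, adjusted p = 0.0209), Oas1a passed in WT (2.28 ± 0.35, adjusted p = 0.0256), and Oas2 in neither (adjusted p = 0.132 and 0.0782).

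IFIT proteins bind foreign RNA ends and block translation. Ifit1 stood at -0.99 and 0.08 in BM KO and -1.71, or -0.77 in the scanner file, and 0.14 in BM WT, and was not well above background in FL KO or FL WT. Ifit2 stood at 0.13 and 0.30 in BM KO, against -2.56 in FL KO, and at -0.32, or -0.31 in the scanner file, and 0.09 in BM WT, against -2.52 in FL WT. Ifit3 stood at -2.60 and -0.56 in BM KO and -2.49, or 0.09 in the scanner file, and -0.16 in BM WT, and was not well above background in FL. The BM arrays of Ifit2 lay close together, while those of Ifit1 and Ifit3 spread further. Ifit1 was at least 7.22-fold higher in BM KO than in FL KO (adjusted p = 0.0418), and Ifit2 passed in both genotypes (2.78 ± 0.34 and 2.41 ± 0.34, adjusted p = 0.0105 and 0.0208).

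Among other antiviral effectors, Rsad2, which encodes viperin, stood at 0.77 and 1.46 in BM KO, against -2.52 in FL KO, and at 1.04, or 1.12 in the scanner file, and 1.54 in BM WT, against -2.53 in FL WT. Ifitm3, which blocks virus entry at endosomes, stood at 5.58 and 5.94 in BM KO, against 4.77 in FL KO, and at 5.51, or 3.80 in the scanner file, and 6.07 in BM WT, against 3.46 in FL WT. Bst2, encoding tetherin, stood at 4.27 and 4.44 in BM KO, against 4.19 in FL KO, and at 5.20, or 6.80 in the scanner file, and 5.20 in BM WT, against 4.10 in FL WT. Rsad2 was far above FL on all BM arrays, while Bst2 in BM KO hardly differed from FL KO. Rsad2 passed in KO and WT (3.64 ± 0.43 and 3.83 ± 0.43, adjusted p = 0.0103 and 0.0125), Ifitm3 in WT (2.33 ± 0.39, adjusted p = 0.031), and Bst2 in neither.

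The guanylate-binding proteins and IRG GTPases attack the vacuoles of intracellular pathogens. Tgtp2 stood at 6.37 and 6.34 in BM KO, against 1.61 in FL KO, and at 5.28, or 4.84 in the scanner file, and 6.12 in BM WT, against 0.52 in FL WT. Gbp2 stood at 2.39 and 2.68 in BM KO, against -1.48 in FL KO, and at 2.14, or 0.76 in the scanner file, and 2.57 in BM WT, against -0.60 in FL WT. Gbp3 stood at 2.92 and 2.42 in BM KO, against -0.50 in FL KO, and at 4.06, or 2.58 in the scanner file, and 3.65 in BM WT, against 0.24 in FL WT. All 3 were above FL on every BM array. Tgtp2 passed in KO (4.75 ± 0.43, adjusted p = 0.00665) and WT (5.18 ± 0.43, adjusted p = 0.00885), as did Gbp2 (4.02 ± 0.35 and 2.95 ± 0.35) and Gbp3 (3.17 ± 0.38 and 3.61 ± 0.38). Tgtp2 is nearly identical to Tgtp1, whose own probe was 3.99 ± 0.57 higher in BM KO than in FL KO, and array probes may not separate such copies.

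Ifi44, an interferon-induced gene of the IFI group, stood at 1.79 and 2.84 in BM KO and 0.15, or 1.58 in the scanner file, and 1.64 in BM WT, and was not well above background in FL KO or FL WT. It was at least 49.1-fold higher in BM KO than in FL KO (adjusted p = 0.0103) and at least 18.0-fold higher in BM WT than in FL WT (adjusted p = 0.0241). Ifi27, a small mitochondrial membrane protein gene, stood at 6.81 and 6.22 in BM KO, against 3.79 in FL KO, and at 6.33, or 5.54 in the scanner file, and 6.41 in BM WT, against 4.14 in FL WT. Ifi27l2a, its relative, stood at 5.05 and 5.14 in BM KO, against 1.70 in FL KO, and at 4.33, or 7.71 in the scanner file, and 4.83 in BM WT, against 2.43 in FL WT. Both passed in both genotypes, Ifi27 with 2.73 ± 0.37 and 2.22 ± 0.37 and Ifi27l2a with 3.39 ± 0.35 and 2.15 ± 0.35 in KO and WT.

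Cxcl10, a chemokine that draws T cells, stood at 1.50 and 1.58 in BM KO, against -1.84 in FL KO, and at 1.89, or 2.88 in the scanner file, and 2.09 in BM WT, against -2.34 in FL WT. Phf11d, a PHD finger gene, stood at 3.20 and 3.07 in BM KO, against -2.06 in FL KO, and at 2.40, or 3.60 in the scanner file, and 3.26 in BM WT, against -1.59 in FL WT. Xaf1, a pro-apoptotic gene, stood at 2.17 and 2.13 in BM KO, against 0.56 in FL KO, and at 1.71, or 1.93 in the scanner file, and 2.24 in BM WT, against 0.15 in FL WT. Every BM array was above every FL array for these genes. Cxcl10 and Phf11d passed in KO (3.38 ± 0.31 and 5.19 ± 0.44) and WT (4.33 ± 0.31 and 4.42 ± 0.44), and Xaf1 in WT (1.82 ± 0.36, adjusted p = 0.0481).

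Isg15, the ubiquitin-like modifier, stood at 4.60 and 4.85 in BM KO, against 3.16 in FL KO, and at 3.39, or 4.52 in the scanner file, and 4.70 in BM WT, against 2.17 in FL WT. Usp18, which removes it from proteins, stood at 1.89 and 2.09 in BM KO, against 0.44 in FL KO, and at 0.82, or 2.30 in the scanner file, and 2.39 in BM WT, against -0.49 in FL WT. Igtp, an IRG GTPase, stood at 3.91 and 4.19 in BM KO, against 2.42 in FL KO, and at 3.20, or 3.42 in the scanner file, and 3.88 in BM WT, against 1.82 in FL WT. These 3 were above FL of the same genotype on every BM array. Eif2ak2, the double-stranded RNA-activated kinase PKR, stood at 1.35 and 1.03 in BM KO, against -0.13 in FL KO, and at 0.86, or 0.06 in the scanner file, and 1.23 in BM WT, against 0.06 in FL WT, where the scanner value overlaps. None of the 4 passed with the value table and all 6 arrays at 1 mean per group (adjusted p between 0.0654 and 0.203 in KO and between 0.0761 and 0.183 in WT). In the model with 1 tissue effect for both genotypes all 4 passed.

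The other 4 members were Rtp4, Iigp1, Irgm1 and Ifi35. All 4 were higher in BM KO than in FL KO, between 0.28 for Ifi35 and 1.31 for Rtp4, and in BM WT than in FL WT, between 0.28 for Ifi35 and 1.45 for Rtp4. None of them passed in any fit run. A second, dimmer Iigp1 probe showed a wider gap than the probe used. It read -1.95 and -0.89 in BM KO, against -5.39 in FL KO, and -3.27 and -1.36 in BM WT, against -5.30 in FL WT.

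**Figure D3:**
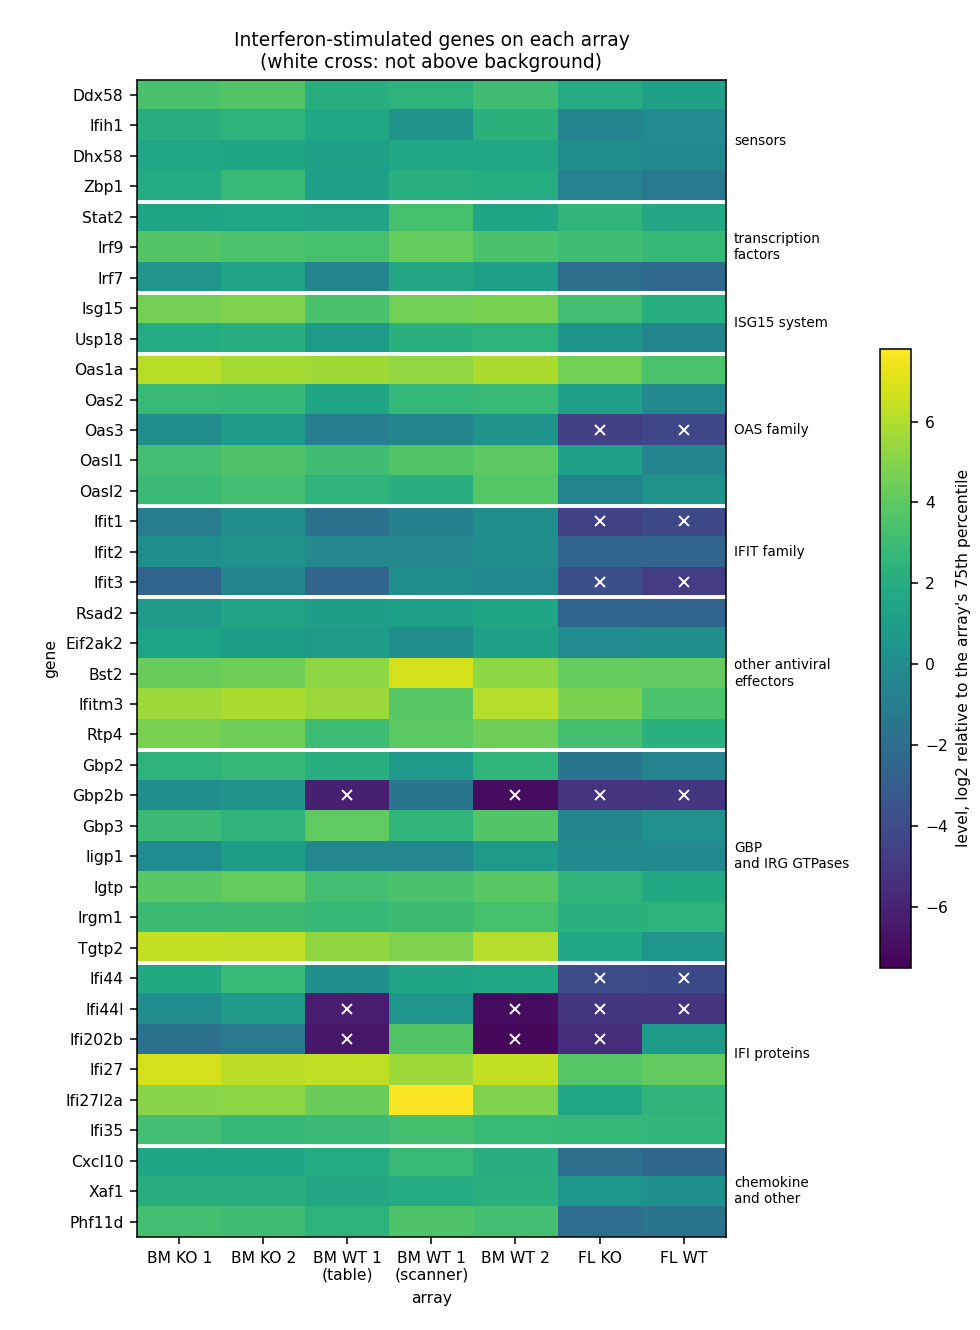
Level of the 38 members with a probe on each array (colour, log2 relative to the array's 75th percentile), grouped by role, with BM WT replicate 1 shown from both sources. White crosses mark probes not above background; most rows are brighter in the 5 BM columns than in the 2 FL columns.

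Upstream parts of the pathway were read in the same fits, with no test of their difference from the members. None of the 9 genes tested of the receptor and JAK-STAT list passed in KO (5 higher, 4 lower, median 0.26), nor any of 10 in WT (median 0.18). Ifnar1 differed by -0.70 ± 0.38 and Ifnar2 by 0.27 ± 0.30 between BM KO and FL KO, and Jak1 by 0.36 ± 0.36 and Tyk2 by 0.83 ± 0.39. Of the interferon genes, 3 of 12 could be tested in KO and 6 in WT, and none passed. Of 13 further nucleic acid sensors and adaptors tested in each genotype, none passed, with 6 higher in KO and 7 in WT. With the scanner file of BM WT replicate 1, 6 of 6 interferon genes tested in WT were higher with a median of 1.18, as were 10 of 13 sensors and adaptors with a median of 0.16, and none passed.

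Other interferon-stimulated genes, listed apart from the 40, moved like the members in part. In KO 22 of 25 tested were higher with a median of 1.39. Of these 25, 10 passed (10.9% of all genes in either direction), including Parp9, Parp12, Trim30a and Samd9l. In WT 24 of 24 were higher with a median of 1.05, and 4 passed (Parp12, Trim30a, Sp100 and Lgals3bp, background 2.79% called higher). Of the other GBP and IRG genes, 3 of 8 passed as higher in KO (Gbp5, Gbp7 and Tgtp1, background 4.76%). In WT 5 of 7 did (Gbp5, Gbp6, Gbp7, Tgtp1 and Gvin1, background 2.79%). Among negative regulators Socs3, a feedback inhibitor of cytokine receptors that many cytokines induce, was 3.86 ± 0.39 higher in BM KO than in FL KO and 4.91 ± 0.38 higher in BM WT than in FL WT (adjusted p = 0.0076 and 0.00839).

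In bone marrow 3 members were much higher in KO than in WT cells from the value table, and the other 35 did not pass the test. With the value table, 29 members were higher and 9 lower in BM KO than in BM WT, with a median of 0.30, against -0.05 over 12783 genes. Ifi44l, Gbp2b and Ifi202b passed as higher (background 0.477%) and no member passed as lower (background 0.399%). Those that passed entered the test only through the BM KO arrays, since neither BM WT array was well above background for them. Without overlap between groups, 11 members were higher (background 17.6%) and 3 lower (background 19.6%). With the scanner file of BM WT replicate 1 no member and none of 13011 genes passed by limma (548 had an unadjusted p under 0.05), 22 members were higher and 16 lower, and the median was 0.11.

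Ifi44l, a paralogue of Ifi44 with an antiviral role described in human cells, stood at -0.02 and 0.69 in BM KO, against 2 BM WT arrays not well above background (-6.27 and -6.97). The scanner file of BM WT replicate 1 gave 0.53, within the range of BM KO. Gbp2b stood at 0.13 and 0.43 in BM KO, against -6.16 and -6.97 in BM WT, both not well above background, and the scanner file gave -1.52. The 2 BM KO arrays stood far above the BM WT arrays for both genes in the value table, and in the scanner file of replicate 1 both were above background. Ifi44l was at least 26.2-fold higher in BM KO than in BM WT and Gbp2b at least 25.3-fold higher. The limma tests were of the fitted differences, 6.96 (adjusted p = 0.00768) and 6.85 (adjusted p = 0.00762). These differences use BM WT levels not well above background, so the p-values do not belong to the bounds. Both were also not well above background in FL KO and FL WT, so they were at least 12.5-fold and 12.0-fold higher in BM KO than in FL KO, and no difference between BM WT and FL WT was tested. A second Gbp2b probe read 0.02 and 0.43 in BM KO, against -6.27 and -7.06 in BM WT.

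The neighbours of these genes on chromosome 3 showed smaller gaps. Ifi44 was above background on all BM arrays and higher in both BM KO arrays than in both BM WT arrays, by 1.42 ± 0.60. This did not pass (adjusted p = 0.484) but did with the slide as a block (adjusted p = 0.0193). The Ifi44 difference was 0.68 without BM WT replicate 1 and 2.16 without BM WT replicate 2. Without BM KO replicate 1 it was 1.94, and without BM KO replicate 2 it was 0.90. Gbp2 differed by 0.18 ± 0.29 with overlapping arrays, and Gbp3 was lower in both BM KO arrays, by -1.18 ± 0.31 (adjusted p = 0.222, or 0.0213 with the slide as a block).

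Ifi202b, a p200 family gene whose product binds cytosolic DNA and whose expression is known to vary among inbred mouse strains, differed with genotype in opposite directions in the 2 tissues. It stood at -1.75 and -1.36 in BM KO, against -6.51 and -7.17 in BM WT, both not well above background, and at -5.47 in FL KO, not well above background, against 0.91 in FL WT. The scanner file of BM WT replicate 1 gave 3.73, the highest value of all. KO was thus the high genotype in BM, by at least 7.06-fold (adjusted p = 0.00907), and the low one in FL. Between tissues BM KO was at least 3.36-fold higher than FL KO (adjusted p = 0.00808), whereas BM WT was at least 39.0-fold lower than FL WT (adjusted p = 0.00772). A second Ifi202b probe gave -2.05 and -1.57 in BM KO, -6.06 and -6.88 in BM WT, -5.25 in FL KO and 0.57 in FL WT, the same order of groups.

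**Figure D4:**
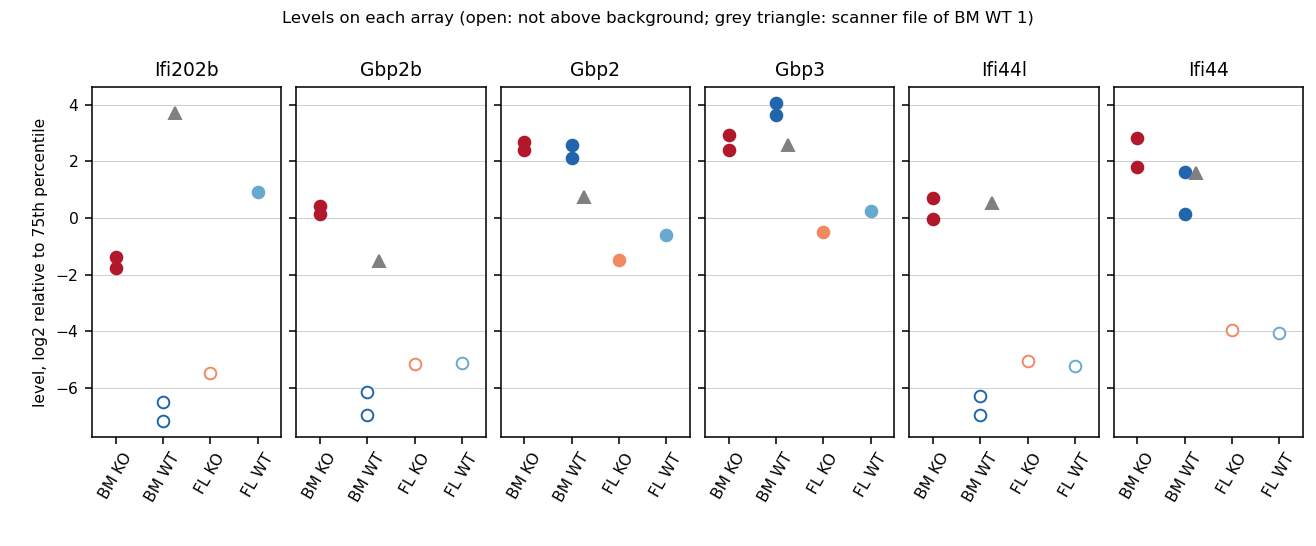
Levels of Ifi202b, Gbp2b, Ifi44l and the chromosome 3 neighbours of the last 2 on each array, in BM KO, BM WT, FL KO and FL WT. Ifi202b, Gbp2b and Ifi44l lie above background in both BM KO arrays and below it in both BM WT arrays of the value table, while Gbp2, Gbp3 and Ifi44 are above background on all BM arrays.

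By pair, BM pair 1 gave 33 of 38 members higher in KO with a median of 0.50 (0.12 with the scanner file), and 10 at least 2-fold higher (background 6.23%). BM pair 2 gave 19 higher and 19 lower with a median of -0.02, and 4 at least 2-fold higher (background 6.25%). In pair 2 these were Gbp2b, Ifi44l, Ifi202b and Ifi44. With the scanner file, pair 1 gave -5.48 for Ifi202b and 1.65 for Gbp2b, and Ifi44l in BM WT lay within the range of BM KO. From the value table, the 2 pairs shared the large differences of Ifi44l, Gbp2b and Ifi202b but not the small upward shift of pair 1. These large differences rest on BM WT levels not well above background. With the slide, which is also the replicate number, as a block, 5 members passed as higher, with Ifi44 and Zbp1 in addition to those 3, and 1 as lower, Gbp3, among 981 of 12783 genes in either direction.

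Members lower in both BM KO arrays were Gbp3, Bst2 by -0.84 ± 0.25 and Cxcl10 by -0.45 ± 0.25, none of which passed. The regulators differed by 0.06 ± 0.25 for Stat2, 0.22 ± 0.25 for Irf9 and 0.56 ± 0.61 for Irf7, and the sensors by 0.91 ± 0.38 for Ddx58, 0.29 ± 0.32 for Ifih1, 0.17 ± 0.28 for Dhx58 and 0.85 ± 0.46 for Zbp1, and none of these 7 passed. None of the tested genes of the ligand, receptor and sensing lists passed either. Irf8, an interferon regulatory factor needed by monocytes and dendritic cells, was the 1 related factor that passed, at 1.22 and 0.87 in BM KO, against 5.80, or 7.18 in the scanner file, and 4.57 in BM WT (-4.14 ± 0.45, adjusted p = 0.0291). The monocyte marker list includes Irf8, which was its brightest gene in BM WT, so its counts and sums below are not separate from the Irf8 result. Of the monocyte and neutrophil markers 5 of 7 and 8 of 8 were lower in BM KO, and 4 of each passed (background 0.399%). The monocyte markers summed to 26.4 and 15.8 in BM KO, against 152 and 74.8 in BM WT, and erythroid markers to 69.6 and 10.4 in BM KO, against 3.85 and 5.23 in BM WT. Their part in the members' differences was not tested.

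In fetal liver 1 KO array stood against 1 WT array, and the difference is given without a test. Of 32 members above background on at least 1 of the 2, 20 were higher and 12 lower in FL KO, with a median of 0.30, against -0.07 over 12702 genes. At least 2-fold higher were 5 members (background 5.32%): Oasl1 by 1.74, Oas2 by 1.37, Ifitm3 by 1.31, Tgtp2 by 1.08 and Oas1a by 1.08. At least 2-fold lower was 1 (background 4.42%), Ifi202b, by at least 18.6-fold, since FL KO was not well above background (measured difference -6.38). The next lowest were Oasl2 by -0.97, Gbp2 by -0.89 and Gbp3 by -0.74. Isg15 was 1.00 higher and Usp18 0.93 higher, and the sensors lay between -0.38 for Ifih1 and 0.64 for Ddx58. The members of 1 family did not move together: Oasl1 was higher and Oasl2 lower in FL KO, though their genes are adjacent on chromosome 5. B lymphoid markers were lower in FL KO, 6 of 7 with a median of -3.21, as were 5 of 5 hepatocyte markers, with a median of -1.78, and their part was not tested.

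**Figure D5:**
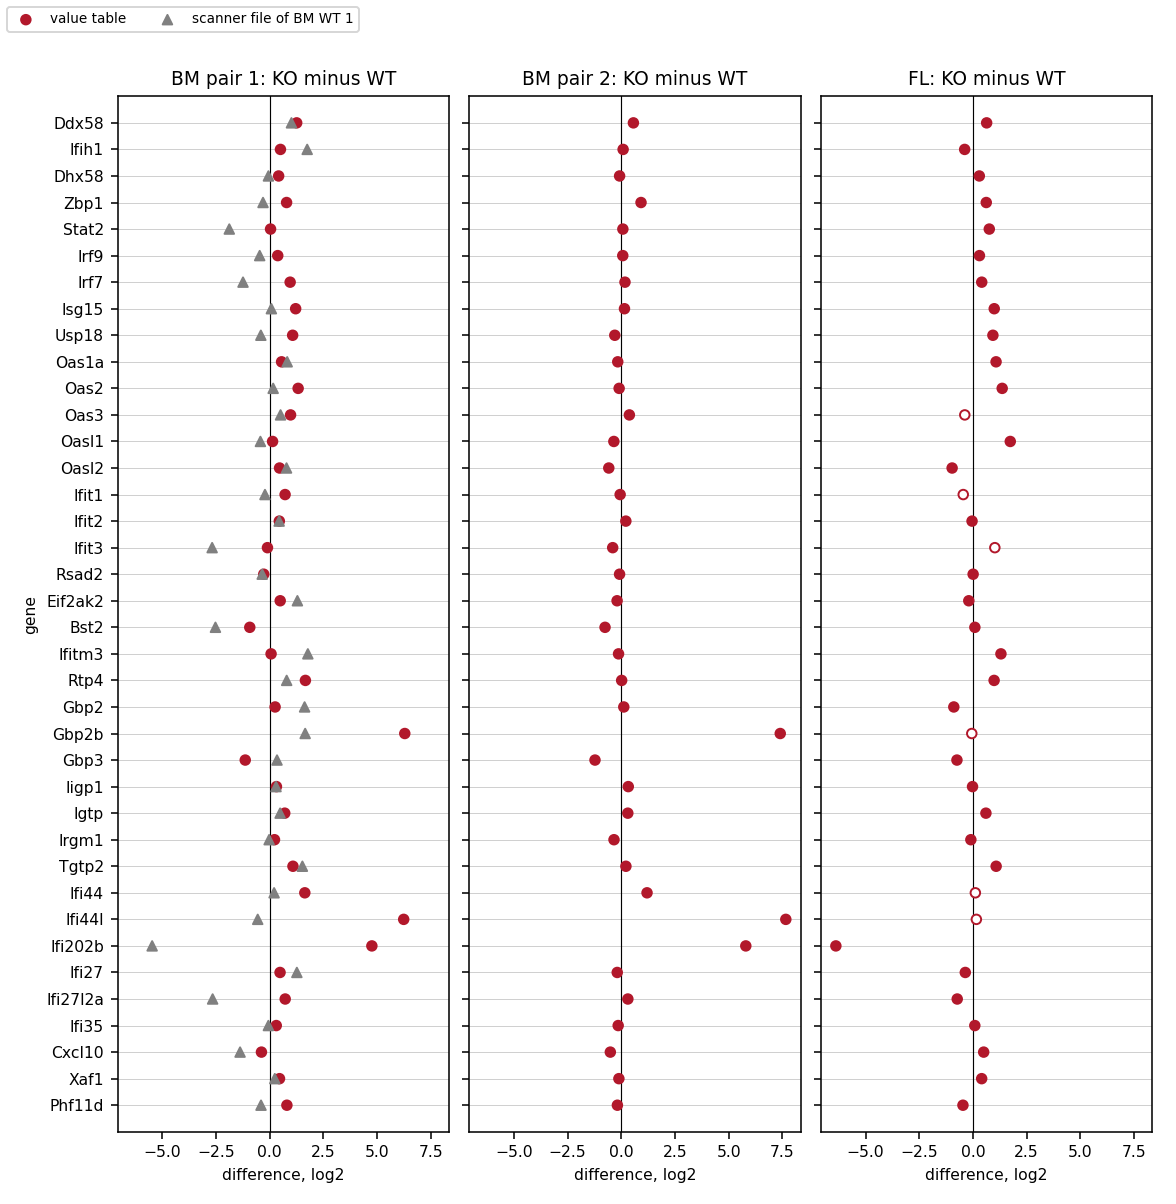
Difference in level, KO minus WT, for each member in BM pair 1, BM pair 2 and the FL pair (log2), with red circles from the value table and grey triangles using the scanner file of BM WT replicate 1; open symbols are below background on both arrays. From the value table Ifi44l, Gbp2b and Ifi202b lie far right in both BM pairs and Ifi202b far left in FL, at measured differences that rest on levels below background; with the scanner file Ifi202b lies far left in pair 1 at -5.48, Ifi44l at -0.56 and Gbp2b at 1.65.

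Whether the genotype difference itself differed between tissues was tested by the interaction of genotype and tissue. No gene passed by limma with either source (950 genes with the value table and 351 with the scanner files had an unadjusted p under 0.05). The median over members was 0.01 with the value table, 19 members being positive and 19 negative. The fitted value was 11.67 ± 0.59 for Ifi202b (adjusted p = 0.0559), against 6.57 with the scanner file (adjusted p = 1.00), 6.90 for Gbp2b and 6.79 for Ifi44l. These fits include levels not well above background, of Ifi202b in BM WT and FL KO and of Gbp2b and Ifi44l in BM WT and both FL groups, so their sizes are not measured exactly and have no order. With the value table, leaving out any 1 of the 4 BM arrays gave 11.34 to 11.99 for Ifi202b. Such a fit leaves 1 array in a BM group, so its calls are not counted.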

How the data were processed

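RNA of 6 KSL samples (10 ng each, per the labels' protocols) was hybridised to 1-colour Agilent arrays. The deposited scanner files hold background-corrected intensity from Feature Extraction 10.7.1.1, per the file headers, and the deposited value table holds a linear ratio of that intensity to a constant for each array, with the authors' scaling not given in the sources used here. Control spots and outlier flags were left out, repeated spots averaged, and values taken as log2 minus each array's 75th percentile. Of 55681 probes, 26762 had an accession matched to 1 of 20284 genes. The table's BM WT replicate 1 column has no flags, so a level of -3.7 was taken as background, which matched the flags for 99.1% of probes on BM KO replicate 1.

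A gene was tested if above background on every array of 1 group compared. The test was limma 3.58.1 (R 4.3.3), lmFit and eBayes, with Benjamini-Hochberg adjustment over all genes tested and a threshold of 0.05. BM KO minus WT used the 4 BM arrays; tissue and interaction contrasts used all 6 with 1 mean per group. The methods were tested on simulated data. The members and lists were chosen with earlier results of these data known. Members given on every array were those that passed in any fit, alternatives included, the 4 largest non-overlapping differences each way in each comparison, and the regulators Stat2, Irf9 and Irf7 with the sensors. The normexp alternative used median spot signals, since the files hold no mean signals. Same-numbered BM arrays share a slide, per the file headers; their deviations from group means correlated at 0.56 with the value table and 0.05 with the scanner files. The number of arrays limits the precision.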

Additional observations from a re-analysis of the deposited data

Results flagged for a closer look

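Ifi202b in fetal liver was marked because its KO minus WT difference there, -6.38 on the log2 scale as measured and at least 18.6-fold lower in KO, ran opposite to that of both bone marrow pairs with the value table (at least 3.83-fold higher in KO in pair 1 and at least 13.0-fold in pair 2). FL KO and both BM WT values are not well above background, so only these bounds are measured. The interaction of genotype and tissue did not pass (11.67 ± 0.59, limma adjusted p = 0.0559). With the scanner file of BM WT replicate 1, pair 1 gave -5.48, the same direction as fetal liver. No group had the 4 arrays needed to look for single arrays far from their group.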

How the results depend on the processing

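The higher level of the members in bone marrow kept its direction under all alternatives run, and the genotype calls in bone marrow rested on the value table. The random slide block could not be fitted with 1 mean per group, so models with 1 tissue effect for both genotypes, with and without it, were chosen after seeing the data. Arrays per group limit all calls, and signal over background leaves several members in FL, and Ifi44l, Gbp2b and Ifi202b in BM WT, with a bound only.

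With the value table, 27 members passed in WT cells, against the 17 reported, both under the model with 1 tissue effect and when only the 3 arrays of that genotype were used, and 7 passed with no filter on dim probes. The median in KO was 2.04 with 1 tissue effect, with or without the random slide block, and 1.63 where only probes above background on all arrays were kept. In the KO tissue comparison 1420 genes passed, against 487 with no filter, 686 with the strict filter, 872 with the random block, 3190 with 1 tissue effect and 2170 with 3 arrays. In the WT one 867 passed, against 257, 317, 879, 3112 and 1848. With the scanner files, where no member passed, 16 and 18 members passed in KO and WT with 1 tissue effect, 18 and 18 with the random block, 28 in KO with only the 3 arrays of that genotype and 1 in WT after quantile normalization. Over all genes these fits passed 307 and 375 (2.36% and 2.86%), 365 and 426, 2197 (16.9%) and 63. The scanner medians were 1.72 and 1.95 in KO and WT with normexp, 1.63 and 2.15 with the strict filter, and in WT 2.54 after quantile normalization, 2.42 with the mean of all probes, 2.21 with no filter and 2.24 with 1 tissue effect, with or without the random block.

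For BM KO minus WT with the value table, no member passed among probes above background on all arrays, since Ifi44l, Gbp2b and Ifi202b were then not tested, and Gbp2b and Ifi44l alone passed with no filter. Same-numbered BM arrays share a slide, and with this replicate block 6 members passed, which changed no other member's call. Over all genes 112 passed, against 81 after quantile normalization, 11 with no filter, 27 with the strict filter and 981 with the block. In the interaction 3 members and 89 genes passed with the value table after quantile normalization, and the scanner median of -0.21 was -0.062 with normexp and -0.32 with the strict filter. In fetal liver 0 members were 2-fold lower with the strict filter from either source, since Ifi202b was not kept.

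Leaving out 1 BM array at a time gave, with the value table, 3 to 4 members and 88 to 656 genes for BM KO minus WT with medians of -0.034 to 0.68, 19 to 28 members and 1471 to 2170 genes in KO with medians of 2.16 to 2.65, 17 to 27 members and 644 to 1848 genes in WT with medians of 1.84 to 2.57, and 1 to 3 members and 1 to 289 genes for the interaction with medians of -0.22 to 0.43. The scanner files gave 0 to 9 members, with 0 to 2391 genes and medians of -0.04 to 0.24, for BM KO minus WT. They gave 0 to 28 members in KO with medians of 2.15 to 2.65, 0 to 23 in WT with medians of 2.34 to 2.57, and 0 to 3 for the interaction with medians of -0.28 to -0.0092, among 0 to 2196, 0 to 2422 and 0 to 1438 genes. In these fits members passed from the scanner files only without a BM WT array: without replicate 1, the same 3 as from the value table passed for BM KO minus WT, among 1.14% of all genes, and without replicate 2, 5 higher and 4 lower, among 17.8%.

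Some single members changed direction, and the Ifi202b and Ifi44l values include levels not well above background. For BM KO minus WT from the scanner files, Ifi202b was -1.04 with normexp and -0.25 after quantile normalization; leaving out 1 array at a time gave it -5.28 to 5.65, Gbp3 -0.98 to 0.094 and Ifi44l -0.20 to 7.33. From the value table Ifit3 ranged from -1.42 to 0.91 and Oasl1 from -0.52 to 0.30. In the WT tissue comparison from the scanner files Ifi202b ranged from -8.12 to 2.82 and Stat2 from -0.14 to 1.65, and with 1 tissue effect, with or without the random block, they were 0.63 and -0.082. In KO from the value table Ifi202b was then -1.92, since that model averages its opposite differences in KO and WT. The cause of the other changes was not tested.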

Other observations

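Gbp6, a guanylate-binding protein gene outside the 40 members, stood at -0.85 in FL KO, against -5.45 in FL WT, where it was not well above background. In bone marrow it stood at -1.60 and -1.45 in BM KO, against -1.31 in BM WT replicate 2 and -0.75 in the scanner file of BM WT replicate 1, with the value table's level of that array between them. FL WT was thus the only array of the 6 without a signal above background for this gene. BM WT was at least 4.33-fold higher than FL WT (limma adjusted p = 0.00772), while BM KO and FL KO differed by -0.67 ± 0.32 (adjusted p = 0.243). Among p200 family relatives, in FL, Ifi209 was 1.48 higher and Ifi211 1.72 lower in KO, and in bone marrow Ifi209 was 2.03 ± 0.39 lower in KO (adjusted p = 0.112).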
